A study of Mus musculus with 16 samples.

Results

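Plasma cells secrete antibody, and the 10 genes described here are known from that cell and from immunoglobulin A (IgA), the antibody class of mucosal surfaces. They are Igha, Sdc1, Tnfrsf17, Prdm1, Xbp1, Mzb1, Derl3, Fkbp11, Creld2 and Edem1, taken by name, and all 10 were measured among the 19938 genes of the array. A gene was read from the probe set that names it alone, with the highest mean over all arrays where several did. Igha has 2 such probe sets and both are given, so the 10 genes stand on 11 of 21789 probe sets that name 1 gene. Expression was measured on 16 arrays of mouse bone marrow RNA in a study of B cell precursor acute lymphoblastic leukemia, a cancer of immature B cells. Of these, 6 came from leukemic mice heterozygous for both Bank1 and Pax5 (Bank1+/- + Pax5+/-, called Bank1/Pax5 leukemia) and 6 from leukemic Pax5+/- mice (Pax5 leukemia). The other 4 hold pro-B and pre-B cells of WT mice. Both leukemia groups carry the Pax5+/- genotype, and the WT cells carry neither. Whole marrow was profiled in leukemia but a precursor fraction in WT, per the labels, and the mice lived in a conventional facility with exposure to common pathogens. The sources used here do not give age, sex, strain or how the WT fraction was isolated, and a cell type label of the WT samples reads leukemic against their other labels. The design text counts 3 WT mice, whereas 4 WT arrays are labelled as separate biological replicates.

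A B cell becomes a plasma cell when the repressor Blimp-1, encoded by Prdm1, shuts down the B cell program and the transcription factor XBP1 enlarges the endoplasmic reticulum (ER) for secretion. PAX5, which keeps cells in the B lineage, holds that program back, and XBP1 is made active by splicing of its RNA when ER proteins misfold, which arrays of this kind do not report. In mouse marrow syndecan-1, encoded by Sdc1, marks pre-B cells as well as plasma cells, so the gene is not specific to secreting cells. Precursor B cells rearrange the immunoglobulin heavy chain locus and transcribe it before they carry any surface antibody.

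Values are log2 probe set intensities, and a difference of 1 is a 2-fold change. A probe set under 7.015 log2, the median of all probe sets naming 1 gene, is called dim, since the size of its difference is then not well bounded. Array medians lay between 6.58 and 6.71. Across probe sets, pairs of Bank1/Pax5 leukemias had r of 0.944 to 0.987, pairs of Pax5 leukemias 0.968 to 0.982 and pairs of WT arrays 0.992 to 0.995. The median level per array of 11 measured pro-B and pre-B markers ran from 7.58 to 12.02 in Bank1/Pax5 leukemia and from 7.36 to 12.65 in Pax5 leukemia, against 12.66 to 12.73 in WT cells. Leukemic marrows thus differed widely in this measure. Bank1 differed by -1.54 log2 between Bank1/Pax5 and Pax5 leukemia (limma adjusted p = 0.0265). Its WT mean of 9.17 lay between those of Bank1/Pax5 leukemia (8.63) and Pax5 leukemia (10.18). Against WT it passed in neither leukemia (limma adjusted p of 0.404 for Bank1/Pax5 leukemia and 0.0964 for Pax5 leukemia). The Pax5 gene did not pass the test in any comparison. Its adjusted p was 0.101 for Bank1/Pax5 leukemia minus WT, 0.446 for Pax5 leukemia minus WT and 0.390 for the leukemia groups. In bulk RNA, fewer cells of a type and less RNA per cell cannot be told apart.

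Igha names the constant region gene of the IgA heavy chain. Its first probe set was high in Bank1/Pax5 leukemia and WT cells and low in Pax5 leukemia. It ranged from 10.01 to 13.38 with a median of 11.75 in the 6 Bank1/Pax5 leukemias. In the 6 Pax5 leukemias it ranged from 8.86 to 10.83 with a median of 9.21. The 4 WT arrays had 11.34, 11.52, 11.52 and 11.81. The WT values were tightly grouped, whereas the leukemias spread over several fold, with array 5 of Bank1/Pax5 leukemia the highest and array 1 of Pax5 leukemia the lowest. Arrays 2 and 3 of Bank1/Pax5 leukemia lay inside the range of Pax5 leukemia, so these groups overlapped, but every Pax5 leukemia lay below every WT array.

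Igha averaged 11.64 ± 1.16 in Bank1/Pax5 leukemia and 9.56 ± 0.83 in Pax5 leukemia (SD, n = 6 each), a 4.23-fold difference that passed the test (log2 difference 2.08, SE 0.49, limma adjusted p = 0.0218). An exact permutation test of the means, two-sided, gave p = 0.0108 for the same arrays. That call ended when only the leukemia groups were fitted (adjusted p = 0.0712) and with the replicate number as a block (0.0579). The size of the difference was unchanged by either, at 2.08. Igha was 3.98-fold lower in Pax5 leukemia than in WT cells, which averaged 11.55 ± 0.19 (SD, n = 4; log2 difference -1.99, SE 0.54, limma adjusted p = 0.0162). This call missed the threshold without array 4 of WT, at a log2 difference of -1.91 and an adjusted p of 0.0522. Between Bank1/Pax5 leukemia and WT cells the Igha difference was 0.0909, with a 95% interval from -1.07 to 1.25 (adjusted p = 0.928), an interval that spans more than a 2-fold change either way.

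The second Igha probe set gave the same picture. It averaged 11.20 ± 1.19 in Bank1/Pax5 leukemias, 8.94 ± 0.88 in Pax5 leukemias and 10.82 ± 0.29 in WT cells (SD, n = 6, 6 and 4). Its log2 differences were 2.26 between the leukemia groups (SE 0.51, adjusted p = 0.0186), -1.88 between Pax5 leukemia and WT (SE 0.57, adjusted p = 0.0268) and 0.38 between Bank1/Pax5 leukemia and WT (SE 0.57, adjusted p = 0.677). In the fit of the leukemia groups alone its adjusted p was 0.0622. Both probe sets list the same 7 transcript accessions and correlated at r = 0.99 over the 16 arrays, so they are not independent readings.

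**Figure D1:**
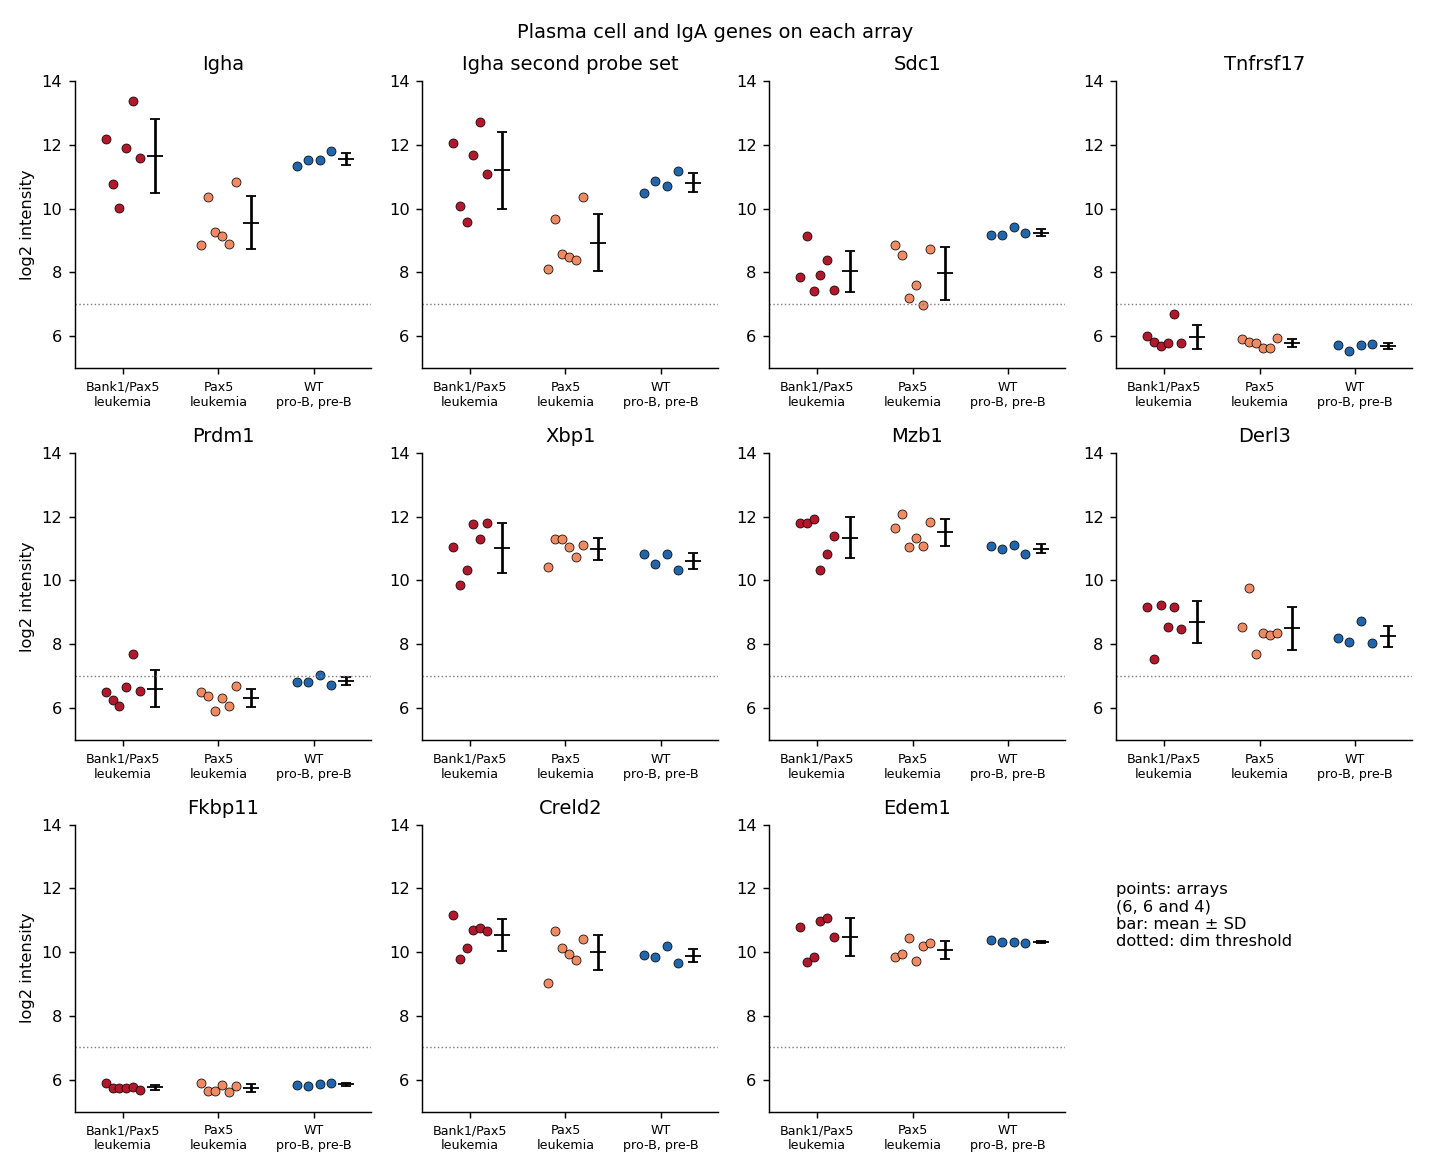
Log2 intensity (vertical axis) of the 10 genes and the second Igha probe set on each array, with points for the 6 Bank1/Pax5 leukemias, 6 Pax5 leukemias and 4 WT samples, bars for the mean ± SD and a dotted line at the dim threshold. Igha is lowest in Pax5 leukemia, Sdc1 is highest in the 4 WT arrays, and Tnfrsf17 and Fkbp11 lie under the dim line on every array.

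Other values bear on what these probe sets read. WT precursors, in which Igha was high, had dim Tnfrsf17 and Fkbp11 on all 4 arrays and dim Prdm1 on 3 of 4. The remaining members, Sdc1, Xbp1, Mzb1, Derl3, Creld2 and Edem1, were above the dim threshold on all 4 WT arrays. A further 4 probe sets name Igha together with heavy chain variable segments or Ighg3, and they correlated with the first Igha probe set at r from 0.68 to 0.894 over the 12 leukemia arrays. Among the 3 probe sets of Ighm, the constant region gene of IgM, the closest to Igha followed it tightly (r = 0.943, rho = 0.958; 0.923 within Bank1/Pax5 and 0.860 within Pax5 leukemia; 0.921 without the 2 arrays farthest from the Igha median). Another had r = 0.905, and the brightest, which stands for the gene, had r = 0.731 (0.776 within Bank1/Pax5 and 0.492 within Pax5 leukemia; 0.620 without the 2 farthest arrays). Ighg3 had r = 0.268 with Igha and Jchain 0.554. All these points share the arrays and RMA scaling, and correlations are given here as descriptions without a test. The results are therefore stated for probe sets annotated to Igha, and whether they read IgA or other heavy chain transcripts was not tested.

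That Ighm probe set averaged 10.05 ± 0.61 in Bank1/Pax5 leukemias, 9.23 ± 0.37 in Pax5 leukemias and 10.27 ± 0.07 in WT cells (SD, n = 6, 6 and 4). It was lower in Pax5 leukemia than in WT (log2 difference -1.03, SE 0.27, limma adjusted p = 0.0133), whereas Bank1/Pax5 minus Pax5 leukemia came to 0.82 (SE 0.24, adjusted p = 0.0586). Another Ighm probe set was also lower in Pax5 leukemia than in WT (-2.36, SE 0.71, adjusted p = 0.0269), and the third, the brightest, was not called (-1.58, SE 0.62, adjusted p = 0.0764). Ighg3, the constant region gene of IgG3, varied widely among the leukemias. It ranged from 5.38 to 10.03 in Bank1/Pax5 leukemia, from 5.72 to 11.13 in Pax5 leukemia and from 9.65 to 10.57 in WT cells, and no comparison of it passed.

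Jchain, which encodes the chain that joins IgA and IgM into polymers, was lowest in WT cells, where Igha was high. Its range was 9.51 to 12.74 in Bank1/Pax5 leukemias, 7.70 to 11.97 in Pax5 leukemias and 6.59 to 9.60 in WT cells. It was 12.7-fold higher in Bank1/Pax5 leukemia than in WT (log2 difference 3.67, SE 0.83, limma adjusted p = 0.00595). The differences of Pax5 leukemia from WT (2.14, SE 0.83, adjusted p = 0.0749) and of Bank1/Pax5 from Pax5 leukemia (1.53, SE 0.74, adjusted p = 0.234) did not pass. The remaining 9 genes of the immunoglobulin constant list had no probe set of their own here.

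**Figure D2:**
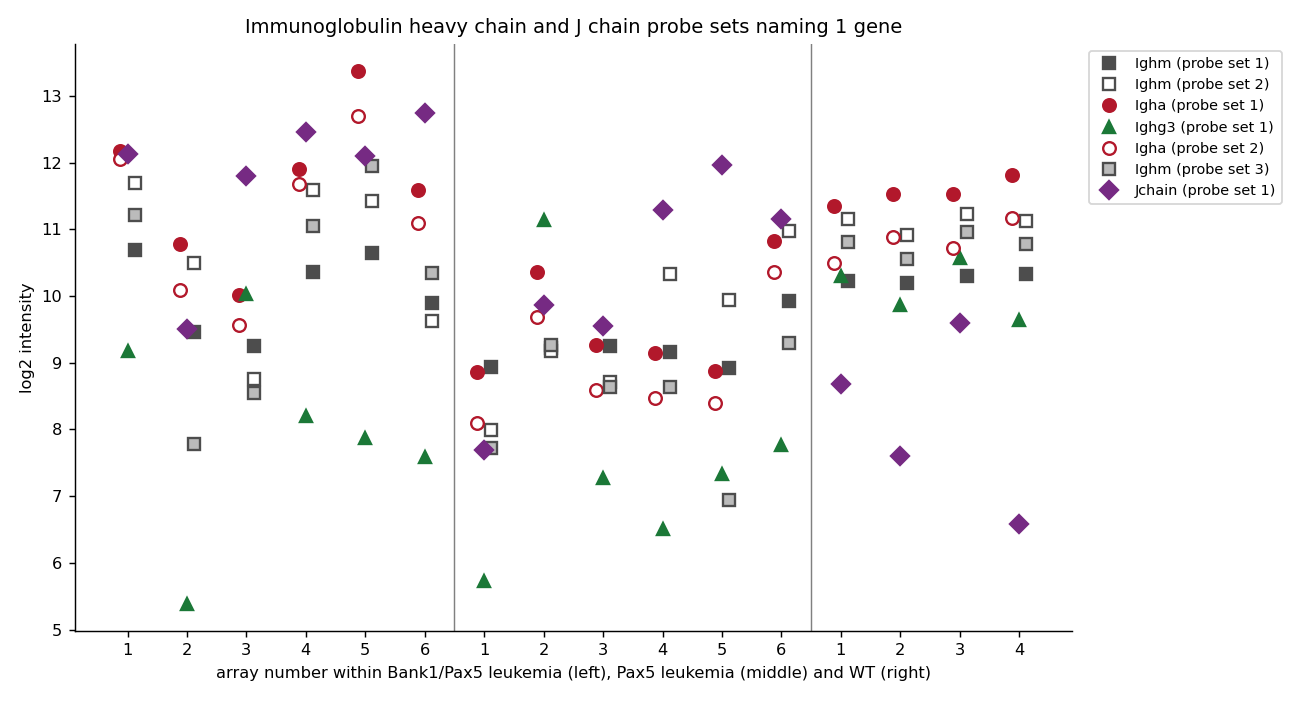
Log2 intensity (vertical axis) of the probe sets that name Igha, Ighm, Ighg3 or Jchain alone, on each array of Bank1/Pax5 leukemia (left), Pax5 leukemia (middle) and WT (right). On most Pax5 leukemia arrays the Igha and Ighm symbols lie below those of WT, whereas Jchain is lowest in WT, at 6.59 to 9.60.

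Of the surface proteins, Sdc1 was lower in both leukemias than in WT precursors. It ranged from 7.42 to 9.13 with a median of 7.89 in Bank1/Pax5 leukemia and from 6.97 to 8.85 with a median of 8.06 in Pax5 leukemia. The WT arrays had 9.18, 9.17, 9.43 and 9.23. Neither leukemia group overlapped WT, although array 2 of Bank1/Pax5 leukemia, at 9.13, lay close to it. The log2 difference of Sdc1 from WT was -1.22 in Bank1/Pax5 leukemia (SE 0.40, limma adjusted p = 0.0447; exact permutation p = 0.0143) and -1.27 in Pax5 leukemia (SE 0.40, limma adjusted p = 0.0326; exact permutation p = 0.0190). The leukemia groups differed by 0.0519 with a 95% interval from -0.71 to 0.82.

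Both Sdc1 calls were narrow. In Bank1/Pax5 leukemia the adjusted p became 0.0536 with arrays centred on their medians, 0.0652 with cyclic loess and 0.112 with the replicate block. It also missed without any single WT array, without array 1, 3, 4, 5 or 6 of Bank1/Pax5 leukemia or without array 4 of Pax5 leukemia, with log2 differences from -1.29 to -1.10. In Pax5 leukemia the adjusted p was 0.0876 with the replicate block, and the call ended without any WT array or without array 3, 4 or 5 of Pax5 leukemia (-1.30 to -1.07). Its direction was the same throughout.

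Tnfrsf17 encodes BCMA, the receptor through which plasma cells receive survival signals, and is among the genes most particular to them. It was dim on all 16 arrays. It ranged from 5.68 to 6.71 in Bank1/Pax5 leukemia, from 5.62 to 5.95 in Pax5 leukemia and from 5.54 to 5.74 in WT cells, with array 5 of Bank1/Pax5 leukemia standing above all others. None of its 3 differences passed (adjusted p from 0.236 to 0.654).

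Among the transcription factors, Prdm1 was dim on 5 of 6 Bank1/Pax5 leukemias, on all 6 Pax5 leukemias and on 3 of 4 WT arrays. Its values ran from 6.05 to 7.69 in Bank1/Pax5 leukemia and from 5.90 to 6.69 in Pax5 leukemia. The WT arrays had 6.82, 6.81, 7.03 and 6.74. Array 5 of Bank1/Pax5 leukemia, which was highest for Igha and Tnfrsf17, was highest for Prdm1 too. Pax5 leukemia lay below WT without overlap, but the log2 difference of -0.54 missed the test (SE 0.25, limma adjusted p = 0.125). It passed when array 5 of Bank1/Pax5 leukemia, which is in neither group, was left out of the shared estimate of spread (adjusted p = 0.0194), in a fit of Pax5 leukemia and WT alone (0.0195) and with array weights (0.0266).

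Xbp1 was well above the dim threshold on every array. It ranged from 9.85 to 11.79 with a median of 11.16 in Bank1/Pax5 leukemia and from 10.44 to 11.31 with a median of 11.07 in Pax5 leukemia. The WT arrays had 10.82, 10.51, 10.84 and 10.32. All groups overlapped, and the widest spread was in Bank1/Pax5 leukemia (SD 0.79, against 0.34 in Pax5 leukemia and 0.25 in WT). Against WT, Xbp1 differed by 0.38 in Bank1/Pax5 leukemia (95% interval -0.33 to 1.10, adjusted p = 0.450) and by 0.36 in Pax5 leukemia (-0.35 to 1.07, adjusted p = 0.454). The leukemia groups differed by 0.0236 (-0.61 to 0.66, adjusted p = 0.970).

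The other 5 genes act in the ER. XBP1 and the stress sensor ATF6 act on many such genes through the ER stress response element (ERSE), which reads CCAAT, then 9 bases of any kind, then CCACG. RefSeq promoter windows (GRCm38.p6, from 250 bases before to 50 after the gene start) were searched on both strands for 8 of the 10 genes, with 2 windows for Fkbp11. The element was present in Derl3 and Creld2 and in 39 of 32851 windows in all (0.119%). Both are shown because they are the members that hold it, each on the strand opposite to the gene, with the element in capitals. It begins 156 bases before the start of Derl3, at chr10:75893148-75893447 (plus strand), and 126 bases before the start of Creld2, at chr15:88819396-88819695 (plus strand).
Derl3: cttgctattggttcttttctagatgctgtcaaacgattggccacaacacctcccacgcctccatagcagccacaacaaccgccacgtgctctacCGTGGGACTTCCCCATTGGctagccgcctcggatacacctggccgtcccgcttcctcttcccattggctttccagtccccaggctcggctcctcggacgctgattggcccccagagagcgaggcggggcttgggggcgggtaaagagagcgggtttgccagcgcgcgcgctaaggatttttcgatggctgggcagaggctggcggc
Creld2: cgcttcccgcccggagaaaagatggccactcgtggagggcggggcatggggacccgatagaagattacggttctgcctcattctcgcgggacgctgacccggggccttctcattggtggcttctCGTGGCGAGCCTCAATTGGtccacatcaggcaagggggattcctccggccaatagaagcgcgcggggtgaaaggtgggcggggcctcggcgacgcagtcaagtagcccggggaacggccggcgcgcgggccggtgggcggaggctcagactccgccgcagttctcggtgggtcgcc

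A related element, ERSE-II, which reads ATTGG, 1 base, CCACG, was in none of the windows searched for these genes and in 0.0365% of all windows. The core of the unfolded protein response element, TGACGTG, was in 1 Fkbp11 window and in 2.01% of all. ACGTG, which that core contains, was in Derl3 and the same Fkbp11 window and in 19.6% of all. A match describes the sequence and shows neither binding nor a cause.

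Creld2, an ER protein induced by misfolding, leaned higher in Bank1/Pax5 leukemia without passing the test. It ranged from 9.78 to 11.16 with a median of 10.69 in Bank1/Pax5 leukemia and from 9.05 to 10.65 with a median of 10.03 in Pax5 leukemia. The WT arrays had 9.90, 9.86, 10.18 and 9.65. Of the Bank1/Pax5 leukemias, 4 lay above every Pax5 leukemia and every WT array, and arrays 2 and 3 did not. Its log2 difference from WT was 0.64 in Bank1/Pax5 leukemia (SE 0.29, limma adjusted p = 0.142; 0.0387 with array weights) and 0.0946 in Pax5 leukemia (SE 0.29, adjusted p = 0.839). Between the leukemia groups it was 0.55 (SE 0.26, adjusted p = 0.230).

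Derl3, a channel component that moves misfolded proteins out of the ER, ranged from 7.54 to 9.23 in Bank1/Pax5 leukemia, from 7.70 to 9.76 in Pax5 leukemia and from 8.03 to 8.73 in WT cells. Arrays 1, 3 and 5 of Bank1/Pax5 leukemia stood close together at the top of their group, at 9.18, 9.23 and 9.18, and array 2 of Pax5 leukemia was higher still. All 3 differences were between 0.19 and 0.44, and none passed (adjusted p from 0.435 to 0.761). Edem1, which targets misfolded glycoproteins for disposal, was even in WT cells at 10.30 to 10.38. It spread from 9.69 to 11.06 in Bank1/Pax5 leukemia and from 9.73 to 10.43 in Pax5 leukemia, on both sides of WT. Its differences were 0.15 for Bank1/Pax5 leukemia minus WT (adjusted p = 0.704), -0.25 for Pax5 leukemia minus WT (0.480) and 0.40 between the leukemia groups (0.291).

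Mzb1, an ER cofactor of antibody folding that B cells also make, was bright in all groups. It ranged from 10.32 to 11.93 in Bank1/Pax5 leukemia, from 11.06 to 12.10 in Pax5 leukemia and from 10.82 to 11.12 in WT cells. Arrays 4 and 5 of Bank1/Pax5 leukemia were lowest in their group. None of its differences passed, at 0.35, 0.51 and -0.17 for Bank1/Pax5 leukemia minus WT, Pax5 leukemia minus WT and the leukemia groups (adjusted p = 0.438, 0.218 and 0.739). Fkbp11, a folding enzyme of secretory cells, was dim on all 16 arrays, between 5.62 and 5.90, and none of its differences passed (adjusted p from 0.197 to 0.817).

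The share of members called was at or below that of all genes against WT and rested on 1 gene between the leukemias. In Bank1/Pax5 leukemia minus WT, 1 of 10 members was called, Sdc1, which was lower, against 19.6% of all genes (6.80% higher and 12.8% lower). In Pax5 leukemia minus WT, 2 of 10 were called, Igha and Sdc1, both lower, against 23.3% of all genes (9.53% higher and 13.8% lower). Between Bank1/Pax5 and Pax5 leukemia 1 of 10 was called, Igha, which was higher, against 6.70% of all genes (1.71% higher and 5.00% lower). At an unadjusted p under 0.05 the members numbered 2, 3 and 1 in these comparisons, against 32.9%, 37.5% and 22.7% of all genes. The groups did not overlap for 1, 3 and 0 members, against 19.6%, 24.8% and 2.70% of all genes. The members' median log2 difference was 0.22, -0.0080 and 0.18, and that of all genes -0.033, -0.048 and 0.016. The comparisons with WT share the WT arrays, so they are not independent of each other.

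**Figure D3:**
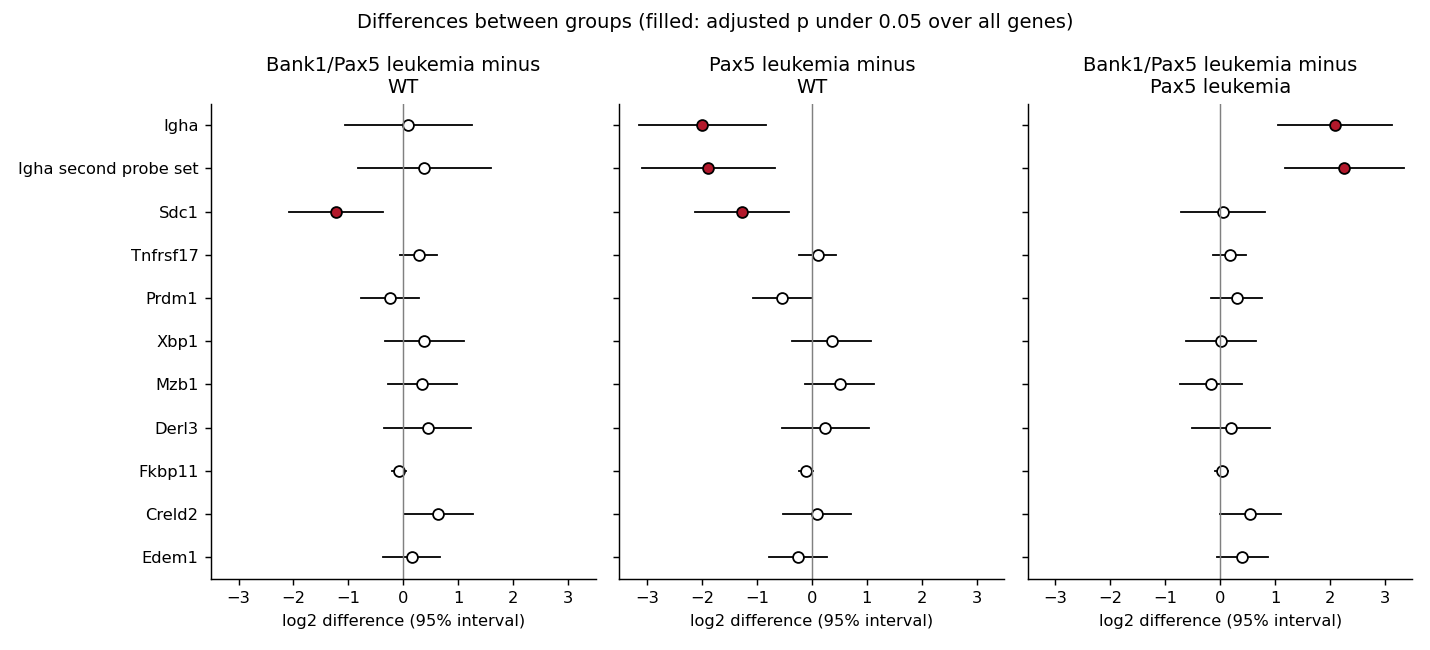
Log2 differences (horizontal axis, with 95% intervals) of the 10 genes and the second Igha probe set in Bank1/Pax5 leukemia minus WT, Pax5 leukemia minus WT, and Bank1/Pax5 leukemia minus Pax5 leukemia. Filled points passed the test over all genes: Sdc1 at -1.22 and -1.27 against WT, and Igha at -1.99 against WT and 2.08 between the leukemias.

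The members did not vary as 1 block among the leukemias. Of their 45 pairs, 10 had r above 0.5 over the 12 leukemia arrays. Igha and Creld2 varied together (r = 0.793, rho = 0.902; 0.724 within Bank1/Pax5 and 0.798 within Pax5 leukemia; 0.804 without the 2 arrays farthest from the Igha median). Xbp1 and Creld2 did so too (r = 0.648, rho = 0.664; 0.755 within Bank1/Pax5 and 0.916 within Pax5 leukemia; 0.708 without the 2 farthest arrays). Xbp1 and Edem1 had r = 0.682, with 0.830 within Bank1/Pax5 but 0.344 within Pax5 leukemia. For Xbp1 and Derl3, whose promoter holds the ERSE, r was 0.248 and fell to 0.0759 without the 2 farthest arrays. The closest pair was Prdm1 and Tnfrsf17 (r = 0.900, rho = 0.643; 0.936 within Bank1/Pax5 and 0.671 within Pax5 leukemia). Without the 2 arrays farthest in Prdm1, array 5 of Bank1/Pax5 leukemia among them, its r was 0.681, and Tnfrsf17 was dim on every array.

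Mzb1 followed the level of pro-B and pre-B markers in both leukemia groups. Its r with the median of these 11 markers was 0.823 over the 12 leukemia arrays (rho = 0.839; 0.888 within Bank1/Pax5 and 0.885 within Pax5 leukemia; 0.753 without the 2 farthest arrays). The WT arrays had higher marker levels, 12.66 to 12.73, but Mzb1 of only 10.82 to 11.12. Within Bank1/Pax5 leukemia Mzb1 also ran opposite to monocyte and macrophage (r = -0.922), stromal and endothelial (-0.883) and megakaryocyte markers (-0.858). Within Pax5 leukemia these were 0.485, 0.809 and -0.179. With the pro-B and pre-B markers Sdc1 had r = 0.675, with 0.888 within Pax5 but 0.308 within Bank1/Pax5 leukemia. Xbp1 ran opposite to these markers within Bank1/Pax5 leukemia (r = -0.910), where arrays 4 and 6 had the most Xbp1 (11.77 and 11.79) and the lowest marker levels (7.58 and 9.22). Within Pax5 leukemia its r was -0.008. With 8 measured mature B cell markers Xbp1 had r = -0.619 over the 12 leukemia arrays (-0.926 within Bank1/Pax5 and -0.609 within Pax5 leukemia). Within Bank1/Pax5 leukemia its r was 0.884 with T cell and 0.868 with megakaryocyte markers, against -0.366 and 0.167 within Pax5 leukemia. For the first Igha probe set r with the pro-B and pre-B markers was -0.041 over the 12 arrays, with opposite signs within Bank1/Pax5 (-0.493) and within Pax5 leukemia (0.576).

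**Figure D4:**
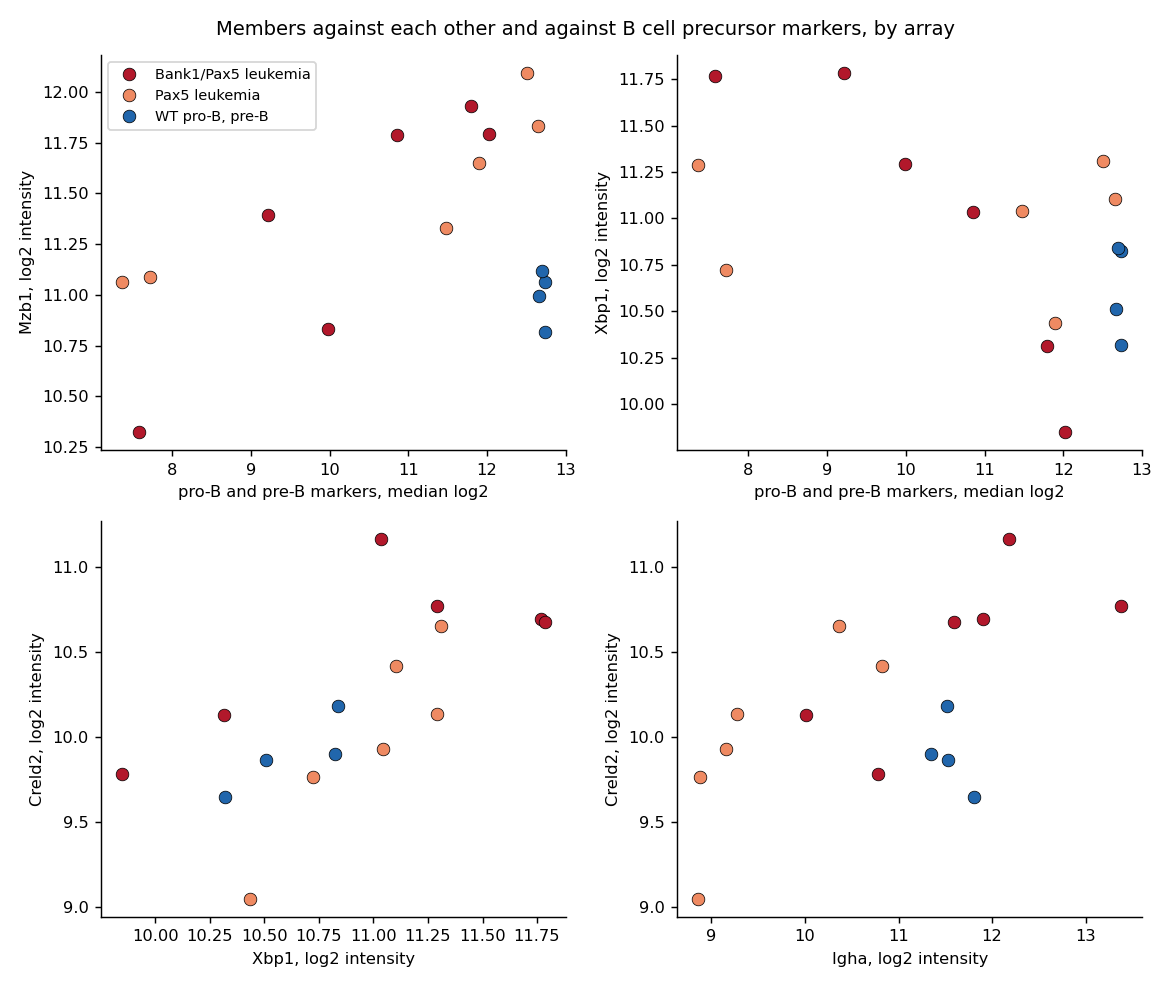
Each point is 1 array, in Bank1/Pax5 leukemia, Pax5 leukemia or WT. The upper panels plot Mzb1 and Xbp1 (log2 intensity) against the median log2 level of 11 pro-B and pre-B markers, and the lower panels plot Creld2 against Xbp1 and against Igha. Mzb1 climbs with the markers among the leukemias (r = 0.823), while Xbp1 is highest on Bank1/Pax5 arrays with few of them.

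Markers of other marrow cells moved in the same comparisons. Of 12 monocyte and macrophage markers 9 rose in Bank1/Pax5 leukemia and 7 in Pax5 leukemia against WT, where 6.80% and 9.53% of all genes rose. Of the same 12 markers, 1 was higher in Bank1/Pax5 than in Pax5 leukemia, against 1.71% of all genes. Their summed level, as log2 of summed intensity, was 13.65 to 15.10 in Bank1/Pax5 leukemias, 13.54 to 14.51 in Pax5 leukemias and 12.34 to 12.99 in WT cells, with 7 of the 12 dim on every WT array. Of 6 megakaryocyte markers 5 rose in Bank1/Pax5 leukemia and 4 in Pax5 leukemia against WT, summing to 12.94 to 14.57 in Bank1/Pax5 leukemias, 12.48 to 14.25 in Pax5 leukemias and 9.64 to 9.79 in WT cells. Of 12 stromal and endothelial markers 7 rose in Bank1/Pax5 leukemia and 8 in Pax5 leukemia against WT, summing to 12.62 to 14.13 in Bank1/Pax5 leukemias, 12.24 to 14.07 in Pax5 leukemias and 11.38 to 11.53 in WT cells. The part of these markers in the results was not tested, and neither was that of the lists that follow.

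The NK cell markers were, like Igha, lowest in Pax5 leukemia. Of 10, 5 fell in Bank1/Pax5 leukemia and 8 in Pax5 leukemia against WT, where 12.8% and 13.8% of all genes fell, and 3 were higher in Bank1/Pax5 than in Pax5 leukemia, against 1.71% of all genes. They summed to 10.57 to 12.29 in Bank1/Pax5 leukemias, 8.97 to 10.40 in Pax5 leukemias and 11.61 to 12.53 in WT cells, with 8 of the 10 dim on every Pax5 array. Of 8 T cell markers 2 were higher in Bank1/Pax5 than in Pax5 leukemia, with sums of 9.49 to 11.01 in Bank1/Pax5 leukemias, 9.50 to 11.32 in Pax5 leukemias and 9.68 to 9.86 in WT cells. Of these 8, 5 were dim on every Pax5 array and 5 on every WT array. None of 12 neutrophil markers passed limma in any comparison, and 0 had an unadjusted p under 0.05. Their median level ran from 7.72 to 12.40 in Bank1/Pax5 leukemia, from 7.02 to 11.86 in Pax5 leukemia and from 7.33 to 9.81 in WT cells. In Bank1/Pax5 leukemia, array 1 (12.35) and array 5 (12.40) were highest, and these held the most Igha.

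Over the 12 leukemia arrays Igha correlated with the median of several of these lists. Parentheses give r within Bank1/Pax5 leukemia, r within Pax5 leukemia and r without the 2 arrays farthest from the list's median. With megakaryocyte markers r was 0.723 (0.851 within Bank1/Pax5 and 0.402 within Pax5 leukemia; 0.640 without the 2 farthest arrays). With T cell markers r was 0.715 (0.596 and -0.541 within the same groups; 0.556 without the 2 farthest arrays), and with NK cell markers 0.608 (0.096 and 0.655; 0.673). Within Pax5 leukemia the medians of both lists were dim, at 5.75 to 6.28 for T cell and 5.38 to 5.57 for NK cell markers. With monocyte and macrophage markers r was 0.629 (0.681 and 0.584; 0.303), and with neutrophil markers 0.605 (0.894 and 0.289; 0.379). With stromal and endothelial markers it was 0.502 (0.684 and 0.656; 0.440), and with erythroid markers 0.636 (0.759 and -0.243; 0.202). Edem1 followed the megakaryocyte list more closely (r = 0.879, rho = 0.832; 0.975 within Bank1/Pax5 and 0.752 within Pax5 leukemia; 0.847 without the 2 farthest arrays). Plasmacytoid dendritic cells also express several genes of the secretory program. Of 11 of their markers, limma called 0 between the leukemia groups, where 6.70% of all genes were called. At an unadjusted p under 0.05 there were 2, against 22.7% of all genes. Their sum was 12.90 to 14.90 in Bank1/Pax5 leukemias, 13.36 to 14.72 in Pax5 leukemias and 14.25 to 14.51 in WT cells. With their median Xbp1 had r = 0.661 (0.744 within Bank1/Pax5 and 0.506 within Pax5 leukemia; 0.537 without the 2 farthest arrays). Igha had r = 0.236 with it (0.007 and 0.228; 0.370).

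The genes whose pattern over the 12 leukemia arrays was most like Igha, among 6368 genes with an SD of at least 0.3 log2, were Rnpep (r = 0.929), Tspo (0.911), Wfdc17 (0.911), Adgre4 (0.907) and Cmtm6 (0.907). Within Pax5 leukemia alone their r with Igha ran from 0.408 for Adgre4 to 0.952 for Tspo. For Xbp1 they were Tram2 (0.936), Mdfic (0.925), Rnd3 (0.925), Ctsb (0.918) and Csf2rb (0.913). In each leukemia group these 5 kept r of at least 0.834 with Xbp1. No other member of the 10 genes was among the 5 nearest to either.

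Of 18 other measured genes listed with plasma cells, 7 fell and 1 rose in Bank1/Pax5 leukemia against WT (median log2 difference -0.49), and 6 fell and 2 rose in Pax5 leukemia (-0.58). Of all genes, 12.8% fell and 6.80% rose in Bank1/Pax5 leukemia (median -0.033), and 13.8% fell and 9.53% rose in Pax5 leukemia (median -0.048). The list also holds genes of B cells, Tnfrsf13c among them, so these counts do not measure the plasma cell program alone. Irf4, a factor that acts in both plasma cells and precursor B cells, fell, with log2 differences of -2.35 in Bank1/Pax5 leukemia and -2.67 in Pax5 leukemia (SE 0.34 each). Sec11c, a subunit of the enzyme that removes signal peptides, differed from WT by -0.43 in Bank1/Pax5 leukemia and -1.02 in Pax5 leukemia (SE 0.12 each) and was higher in Bank1/Pax5 than in Pax5 leukemia (0.59, SE 0.11, limma adjusted p = 0.00602). Tnfrsf13c, the BAFF receptor gene, was lower in Bank1/Pax5 leukemia than in WT (-1.73, SE 0.33) and than in Pax5 leukemia (-1.12, SE 0.30, adjusted p = 0.0382), and Pax5 leukemia minus WT was -0.61 (adjusted p = 0.196). Glcci1 was lower than in WT in both leukemias, with differences of -1.76 in Bank1/Pax5 and -2.18 in Pax5 leukemia (SE 0.40 each). Cav1, whose mean was dim in every group, was higher than in WT by 0.39 in Bank1/Pax5 and 0.80 in Pax5 leukemia (SE 0.12 each), and lower in Bank1/Pax5 leukemia than in Pax5 leukemia (-0.40, SE 0.11). Between the leukemias 1 of the 18 was higher and 2 lower in Bank1/Pax5, where 1.71% and 5.00% of all genes were.

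Sensors and factors of the unfolded protein response had 6 of 18 members lower and 0 higher by limma in either leukemia against WT (medians -0.23 in Bank1/Pax5 and -0.19 in Pax5 leukemia), where 12.8% and 13.8% of all genes were lower (medians -0.033 and -0.048). Eif2ak3, which encodes the sensor PERK, differed from WT by -1.83 in Bank1/Pax5 leukemia and -1.66 in Pax5 leukemia (SE 0.15 each). Dnajb9, an ER chaperone gene and target of XBP1, differed from WT by -0.92 in Bank1/Pax5 leukemia and -1.50 in Pax5 leukemia (SE 0.18 each), and it was higher in Bank1/Pax5 than in Pax5 leukemia (0.58, SE 0.16, limma adjusted p = 0.0447). Herpud1, which acts in disposal of ER proteins, differed from WT by -1.02 in each leukemia (SE 0.20 each). Ppp1r15a, the feedback phosphatase subunit of the pathway, differed by -1.02 in Bank1/Pax5 leukemia and -1.95 in Pax5 leukemia (SE 0.33 each), where its mean of 6.85 was dim. Atf6b was lower in Bank1/Pax5 leukemia than in Pax5 leukemia (-0.43, SE 0.08, adjusted p = 0.00808) and than in WT (-0.35, SE 0.09). Between the leukemias 1 of the 18 was higher and 1 lower in Bank1/Pax5, where 1.71% and 5.00% of all genes were.

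Genes of ER folding, translocation and disposal rose in 9 and fell in 3 of 31 in Bank1/Pax5 leukemia against WT (median 0.26), and rose in 8 and fell in 3 in Pax5 leukemia (median 0.29). Of all genes, 6.80% rose and 12.8% fell in Bank1/Pax5 leukemia (median -0.033), and 9.53% rose and 13.8% fell in Pax5 leukemia (median -0.048). Ssr4, a subunit of the translocon-associated complex, rose by 1.09 in Bank1/Pax5 leukemia (SE 0.12) and by 1.14 in Pax5 leukemia (SE 0.12). Spcs1, of the signal peptidase, rose by 0.72 in Bank1/Pax5 leukemia and 0.44 in Pax5 leukemia (SE 0.12 each), and Ssr1 rose by 0.37 in Bank1/Pax5 leukemia and 0.61 in Pax5 leukemia (SE 0.10 each). Edem3, a relative of Edem1, differed by -1.90 in Bank1/Pax5 leukemia and -1.92 in Pax5 leukemia (SE 0.12 each), whereas Edem1 itself was not called. Between the leukemias 1 of the 31 was higher in Bank1/Pax5, Fkbp2 (0.53, SE 0.12, limma adjusted p = 0.0210). Another 1 was lower, Ssr3 (-0.41, SE 0.11, adjusted p = 0.0421). Of all genes, 1.71% were higher and 5.00% lower in that comparison.

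B cell factors that oppose the plasma cell program had 4 of 10 members lower and 0 higher by limma in each leukemia against WT (medians -0.95 in Bank1/Pax5 and -1.01 in Pax5 leukemia), where 12.8% and 13.8% of all genes were lower. Bach2, a repressor of Prdm1, stood at -3.48 in Bank1/Pax5 leukemia and -3.07 in Pax5 leukemia (SE 0.51 each). Spib differed by -2.64 in Bank1/Pax5 leukemia and -1.65 in Pax5 leukemia (SE 0.37 each), and Ets1 by -1.13 in Bank1/Pax5 leukemia and -0.88 in Pax5 leukemia (SE 0.25 each). None of the 10 was called between the leukemia groups, where 6.70% of all genes were called. Prdm1, which several of these factors hold down, was not called in the main fit of any comparison. It was dim on 5 of 6 Bank1/Pax5 leukemias, all 6 Pax5 leukemias and 3 of 4 WT arrays. A link between these factors and Prdm1 was not tested.

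**Figure D5:**
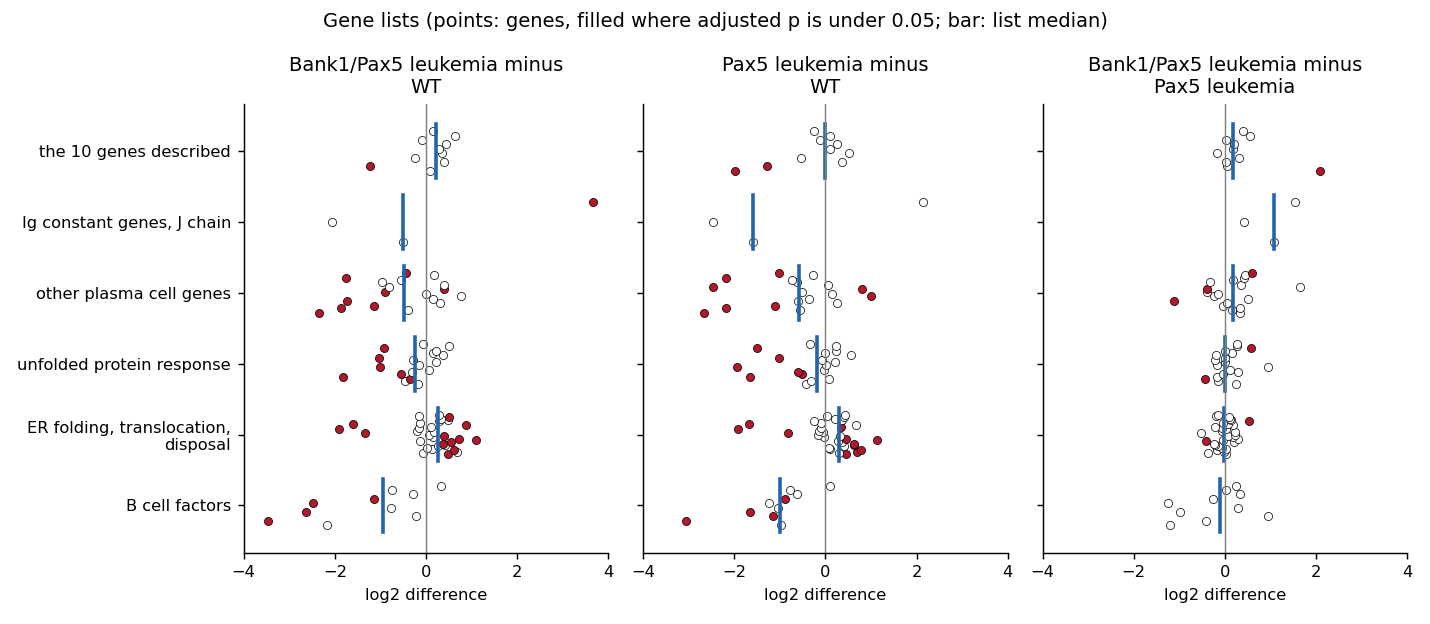
Log2 differences (horizontal axis) of each gene of the 10 described and of the pathway lists, in Bank1/Pax5 leukemia minus WT, Pax5 leukemia minus WT, and Bank1/Pax5 leukemia minus Pax5 leukemia, with filled points for genes that passed and a bar at the list median. Against WT the B cell factors lie mostly below 0, with medians of -0.95 in Bank1/Pax5 and -1.01 in Pax5 leukemia, and the ER genes slightly above 0, with medians of 0.26 and 0.29.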

How the data were processed

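The authors processed the arrays by RMA in oligo, per the submitters' processing notes. No version or filter setting is stated in the sources used here. The deposited values are log2 intensities and were used without further scaling. The number of arrays limits the precision. GEO's platform annotation gave 21789 of 35556 probe sets 1 gene, 1621 several and 12146 none, and current gene records replaced old symbols for all but 91 of the first. Where several probe sets named a gene (999 genes), the one with the highest mean was kept, leaving 19938 genes.

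limma 3.58.1 (R 4.3.3) fitted 1 mean per group to the 16 arrays of the 3 groups, with empirical Bayes moderation. Called genes have a Benjamini-Hochberg adjusted p, two-sided and over all genes, below 0.05. SE is the moderated standard error. The second Igha probe set and the single Ighm probe sets were fitted in the table of all probe sets naming 1 gene. The fit treats the 4 WT arrays as separate samples, although the design text counts 3 WT mice. Its p-values set a difference of means against the spread between these samples, pooled over the 3 groups. That spread was unequal: the median SD of a gene was 0.180 log2 among Bank1/Pax5 leukemias, 0.159 among Pax5 leukemias and 0.0866 among WT arrays. The procedure was checked on simulated data with the same spread in all groups, so that check does not cover the unequal spread. Alternatives were a filter on dim genes, the mean of a gene's probe sets, other scalings, robust moderation, array weights, only the compared groups, a replicate block and leaving out each array.

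The members and lists were chosen with earlier results of these data known. All members are named, with up to 3 called genes of each other list and comparison by smallest p, the measured immunoglobulin constant genes, and the 5 genes most like Igha and Xbp1.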

Additional observations from a re-analysis of the deposited data

Results flagged for a closer look

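Of 33 sets of values, 1 for each probe set and group, 4 had an array far from the others of its group, and chance flags about 1 in 20. Prdm1 was at 7.69 and Tnfrsf17 at 6.71 on array 5 of Bank1/Pax5 leukemia, which was also the highest array for Igha. Tnfrsf17 was at 5.54 on array 2 of WT, and Fkbp11 was at 5.90 on array 1 of Bank1/Pax5 leukemia, and all these Tnfrsf17 and Fkbp11 values are dim.

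The Igha difference from WT was not the same in the leukemia groups. The test of that difference, which leaves only Bank1/Pax5 minus Pax5 leukemia since WT is shared, gave 2.08 for the first probe set (limma adjusted p = 0.0218) and 2.26 for the second (0.0186).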

How the results depend on the processing

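The calls among these genes were few and close to the threshold, and the causes of the changes below were not tested. Between Bank1/Pax5 and Pax5 leukemia, a fit of only those groups called 0 members, against 1, and 446 genes, against 1336. With the replicate number as a block, 0 members were called in Bank1/Pax5 leukemia minus WT, 1 in Pax5 leukemia minus WT and 0 between the leukemias, with 2542 genes in the first comparison and 696 in the last. The second Igha probe set stayed at 2.26 in both fits (adjusted p = 0.0622 with only the compared groups and 0.0519 with the block), and Igha in Bank1/Pax5 leukemia minus WT turned to -0.19 under the block. Deviations of same-numbered arrays from their group means correlated at r from -0.379 to 0.321. Whether these arrays share more than a number was not tested. Array weights called 2 members and 6486 genes in Bank1/Pax5 leukemia minus WT and 8104 genes in Pax5 leukemia minus WT. They turned Xbp1 to -0.028 and Mzb1 to 0.0044 between the leukemias, and cyclic loess turned Fkbp11 there to -0.0086. Median centring and cyclic loess each called 0 members in Bank1/Pax5 leukemia minus WT. Of all genes there, cyclic loess called 2079 higher and 1933 lower and median centring 1495 and 2099, against 1356 and 2543. In Pax5 leukemia minus WT these were 2302 and 2136 with cyclic loess and 2021 and 1953 with median centring, against 1901 and 2754. The shares of rising and falling genes given beside the lists are those of the main fit and depend on the scaling. The filter on dim genes removed Prdm1, Tnfrsf17 and Fkbp11.

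Leaving out each array in turn gave 0 to 1 members in Bank1/Pax5 leukemia minus WT. In Pax5 leukemia minus WT it gave 0 to 3 members, 3072 to 5560 genes and -2.17 to -1.71 for the second Igha probe set, whose call ended without Pax5 array 4 or 5 or WT array 2, 3 or 4. Between the leukemias it gave 725 to 1742 genes, with 1 member, Igha, called each time. Uncalled differences that changed sign ranged from -0.26 to 0.42 for Igha in Bank1/Pax5 leukemia minus WT, and in Pax5 leukemia minus WT from -0.0062 to 0.41 for Derl3 and from -0.037 to 0.28 for Creld2. Between the leukemias they ranged from -0.17 to 0.23 for Sdc1, -0.13 to 0.26 for Xbp1, -0.28 to 0.038 for Mzb1 and -0.0023 to 0.054 for Fkbp11.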
